A study of Rattus norvegicus with 18 samples.

Results

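The 10 genes described here are commonly read as marks of epithelial or mesenchymal identity, and were measured in NRK-52E, an established rat line that the labels call a renal proximal tubular cell line. They were E-cadherin (Cdh1), N-cadherin (Cdh2), the intermediate filament genes Vim, Krt8, Krt18 and Krt19, the calcium-binding protein gene S100a4, and the transcription factor genes Snai1, Snai2 and Zeb1. The members were found by name, as array probe sets to which the platform annotation gave that single gene symbol. Of the 10 genes, 9 had such a probe set, with 12 probe sets in all, out of 14217 genes and 31099 probe sets on the array. Snai2 had no such probe set and is not analysed here.

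Epithelial cells hold together through E-cadherin junctions and carry keratin filaments, in which a type II keratin such as keratin 8 pairs with a type I keratin such as keratin 18 or 19. In epithelial-mesenchymal transition these features recede while N-cadherin, vimentin and S100A4 (also called fibroblast-specific protein) increase, and the Snail and Zeb repressors are known to bind E-box sequences in the E-cadherin promoter. Kidney tubule cells are unusual among epithelia in that many of them carry N-cadherin, and cultured tubule lines often carry vimentin.

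All cells were grown to confluence and received 0.1% DMSO, either alone (DMSO groups) or with 1.65 µM aristolochic acid (AA groups), a nitrophenanthrene plant toxin that forms DNA adducts and injures the proximal tubule. RNA was taken after 6, 24 or 72 h, which gave 6 groups of 3 Affymetrix arrays, 18 in all, called here by treatment and hour (AA 6 h is aristolochic acid for 6 h). The labels give no genetic change in any group and name the dose as the IC10 at 72 h, so every AA group received the concentration set from the longest exposure. Samples of a group are labelled as biological replicates, with no word on common plates or days. The p-values thus measure only the spread between these samples, which may be technical.

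Levels are on the log2 scale of the authors' deposited table. The array medians lay between log2 4.03 and 4.20, arrays of one group had r from 0.996 to 0.999 with each other, and the median SD between replicates was 0.11. A probe set under log2 4 is close to the floor that the background correction leaves, where 14254 of 31042 non-control probe sets (45.9%) lay on all 18 arrays. AA 6 h replicate 3 stood apart from its group on the fourth principal component, at -26.48 against -6.63 and -8.92, and the members' differences at 6 h are given with and without it. In whole cultures, fewer cells of a type and less RNA per cell cannot be told apart.

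The tubule label was set against marker genes. Of 16 proximal tubule markers on the array, 12 lay below log2 4 on all 18 arrays, among them the defining genes Slc34a1, Lrp2, Cubn, Slc5a2, Hnf4a and Cdh16. The markers Mme and Slc4a4 lay above it on all 18, Ggt1 on 9 and Aqp1 on 7. All 9 markers of the loop, distal tubule and collecting duct, 6 of 7 immune cell markers and 5 of 7 endothelial markers (Pecam1, Kdr, Emcn, Tie1 and Vwf) lay below log2 4 on every array. The remaining endothelial markers lay above it, Egfl7 on all 18 arrays and Tek on 17, and the remaining immune marker, Cd68, on 8. Of 9 fibroblast markers, the collagen genes Col1a1, Col1a2 and Col3a1 lay above log2 4 on all 18 arrays, while Dcn, Lum, Pdgfra, Thy1 and Fap lay below it on all 18. The defining genes of the labelled cell type were thus mostly at the floor in every group.

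The members fell into 2 sets with nothing between them. Of the 12 probe sets, 7 lay at or above log2 4 on all 18 arrays and 5 lay below it on all 18. The first set held N-cadherin, vimentin, S100a4, keratin 8, Snai1 and Zeb1, and the second held E-cadherin, keratin 18, keratin 19 and a further N-cadherin probe set. This left 6 member genes for testing and 3 below the filter, which asked for log2 4 on at least 3 arrays. No probe set of a member crossed log2 4 with AA or with time.

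**Figure D1:**
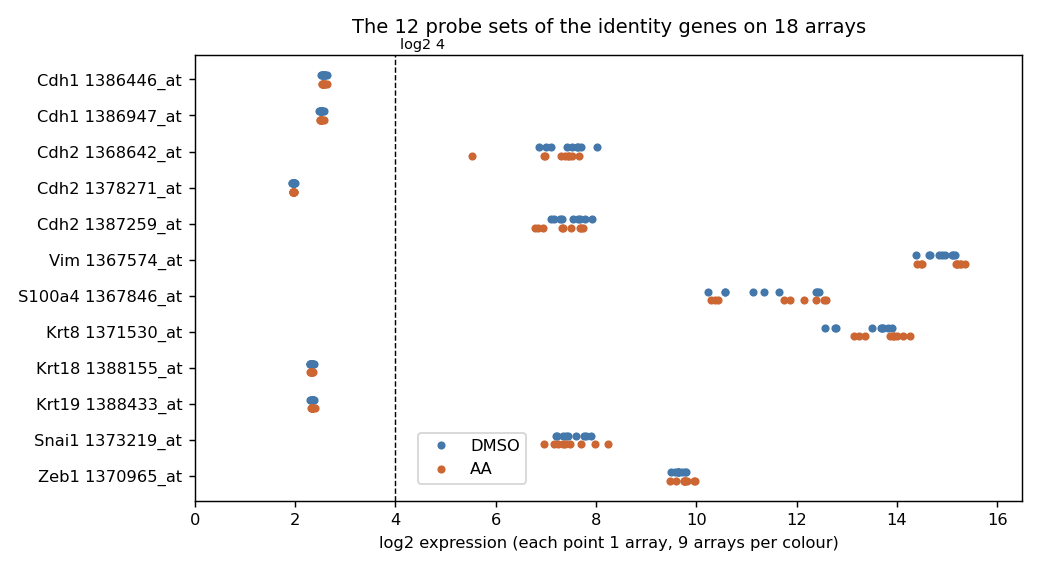
Log2 expression (horizontal axis) of each of the 12 probe sets of the identity genes (rows); each point is 1 of 18 arrays, blue for DMSO and orange for AA, and the dashed line marks log2 4. The 5 probe sets left of the line, 2 of Cdh1 and 1 each of Cdh2, Krt18 and Krt19, each span 0.13 or less, while 7 lie right of the line on every array.

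E-cadherin, the main adhesion molecule of epithelial junctions, had probe sets 1386446_at and 1386947_at, at 2.51 to 2.64 and 2.48 to 2.58 over the 18 arrays. Keratin 18 (1388155_at) lay at 2.30 to 2.37 and keratin 19 (1388433_at) at 2.30 to 2.39. The N-cadherin probe set 1378271_at lay at 1.95 to 2.0. Over the 18 arrays these 5 probe sets varied together, with pairwise r from 0.818 to 0.982 in 10 pairs. The other probe sets at the floor moved with them in the same way, with a median r of 0.924 with Krt18 (quartiles 0.701 and 0.952). This is a description of the floor over shared arrays, and the group differences of these probe sets are given no test. A value there does not show that a transcript was absent.

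Keratin 8, the type II keratin of simple epithelia, was the only one of the 3 keratins among the members with signal above the floor. Its RefSeq promoter window in assembly GRCr8 and those of Vim and S100a4, the 3 members above the floor whose windows hold a TATA-type match, are shown from the start of the window to just past that match, 5' to 3' on the gene's strand. Capitals mark TATAAA, and in Krt8 also CACCTG, the E-box core known for Snail and Zeb factors; the run of 8 capitals in Krt8 is TATAAA found on both strands, overlapping. The windows are chr7:135010423-135010589 (minus strand) for Krt8, chr17:81577011-81577199 (plus strand) for Vim and chr2:178388279-178388518 (plus strand) for S100a4.
Krt8: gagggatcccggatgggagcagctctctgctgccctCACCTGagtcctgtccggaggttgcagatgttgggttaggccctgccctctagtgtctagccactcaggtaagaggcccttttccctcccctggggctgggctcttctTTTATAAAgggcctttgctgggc
Vim: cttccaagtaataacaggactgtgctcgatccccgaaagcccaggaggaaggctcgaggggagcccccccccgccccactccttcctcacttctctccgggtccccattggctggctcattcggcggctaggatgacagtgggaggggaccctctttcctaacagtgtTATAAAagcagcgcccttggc
S100a4: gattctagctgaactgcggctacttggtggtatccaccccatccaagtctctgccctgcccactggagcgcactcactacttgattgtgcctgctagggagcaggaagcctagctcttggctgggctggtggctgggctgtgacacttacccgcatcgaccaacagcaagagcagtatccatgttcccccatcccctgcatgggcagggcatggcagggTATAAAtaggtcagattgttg
The match on the gene's strand began 104 bases before the annotated start in Krt8, 82 in Vim and 31 in S100a4. For Snai1 and Zeb1, whose products repress Cdh1 and whose own windows hold the E-box core, 30 bases around the match are shown, at chr3:176667322-176667351 (plus strand) and chr17:56810731-56810760 (minus strand), with CACCTG or its reverse complement in capitals.
Snai1: gcagcccaggcgCACCTGctctgatcccgg
Zeb1: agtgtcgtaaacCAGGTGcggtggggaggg
The E-box core began 142 bases before the start in Snai1, 95 in Zeb1 and 214 in Krt8, and Zeb1 has another match after its start. Promoter sequences were given for 6 members. Of these, 3 hold CACCTG on either strand, against 18.8% of 33469 promoter windows of 300 bases (250 before and 50 after the start). On the gene's strand, TATAAA occurs in 3 of the 6, against 8.8% of all windows (14.2% on either strand). These are matches of letters and say nothing of binding. Krt8 and Krt18 are near neighbours on chromosome 7, with 1 gene between them.

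In DMSO the Krt8 probe set (1371530_at) read log2 13.67, 13.71 and 13.50 at 6 h, 13.71, 13.81 and 13.90 at 24 h, and 12.76, 12.79 and 12.57 at 72 h. In AA it read 14.00, 14.11 and 14.26 at 6 h, 13.86, 13.92 and 13.95 at 24 h, and 13.15, 13.35 and 13.25 at 72 h. At 6 h and at 72 h every AA array lay above every DMSO array, at 24 h the groups overlapped, and both treatments were lowest at 72 h. Ordered by mean, AA 6 h stood highest (14.13 ± 0.13, SD, n = 3), clear of the next 3 groups (AA at 24 h, then DMSO at 24 h and at 6 h), whose neighbours overlapped. AA 72 h (13.25 ± 0.10) and DMSO 72 h (12.71 ± 0.12) followed, each clear of the group above it.

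Vimentin, the main intermediate filament of mesenchymal cells (1367574_at), read 15.10, 14.90 and 14.84 in DMSO at 6 h, 14.97, 15.11 and 15.16 at 24 h, and 14.64, 14.65 and 14.38 at 72 h. The AA arrays gave 15.18, 15.27 and 15.35 at 6 h, 15.25, 15.20 and 15.19 at 24 h, and 14.50, 14.39 and 14.48 at 72 h. The AA arrays lay above the DMSO arrays at 6 h and, narrowly, at 24 h, and the groups overlapped at 72 h. By mean, AA 6 h (15.27 ± 0.08) and AA 24 h (15.21 ± 0.03) overlapped at the top, and DMSO 72 h (14.55 ± 0.15) and AA 72 h (14.46 ± 0.06) overlapped at the bottom, clear of all other groups.

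S100a4, a small calcium-binding protein of motile and mesenchymal cells (1367846_at), read 12.39, 12.40 and 12.45 in DMSO at 6 h, 11.35, 11.66 and 11.13 at 24 h, and 10.57, 10.57 and 10.23 at 72 h. With AA the values were 12.54, 12.58 and 12.39 at 6 h, 12.14, 11.86 and 11.74 at 24 h, and 10.29, 10.37 and 10.44 at 72 h. It had the widest range of the group means of any member, 2.13 between AA 6 h (12.50 ± 0.10) and AA 72 h (10.37 ± 0.07). AA 24 h (11.92 ± 0.20) and DMSO 24 h (11.38 ± 0.27) each stood clear of their neighbours in the order, while the treatments overlapped at 6 h and at 72 h.

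N-cadherin, the cadherin of mesenchymal cells and of many tubule cells, was represented by probe set 1387259_at, the highest of its 3. It read 7.32, 7.55 and 7.63 in DMSO at 6 h, 7.92, 7.79 and 7.69 at 24 h, and 7.17, 7.28 and 7.09 at 72 h. The AA values were 7.31, 7.34 and 7.50 at 6 h, 7.69, 7.69 and 7.75 at 24 h, and 6.94, 6.78 and 6.83 at 72 h. Only at 72 h did the treatments separate, with every AA array below every DMSO array; AA 72 h (6.85 ± 0.08) was the lowest of the 6 groups and DMSO 72 h (7.18 ± 0.09) the next.

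The other N-cadherin probe set above the floor, 1368642_at, followed a different course. In DMSO it read 6.85, 7.10 and 7.01 at 6 h, 8.02, 7.65 and 7.42 at 24 h, and 7.70, 7.62 and 7.52 at 72 h. AA arrays read 6.96, 6.98 and 5.53 at 6 h, 7.67, 7.45 and 7.44 at 24 h, and 7.52, 7.37 and 7.31 at 72 h. The value of 5.53 came from AA 6 h replicate 3. On this probe set the groups of 24 h and 72 h overlapped along the order, and the groups of 6 h lay below them.

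Snai1, the Snail repressor (1373219_at), read 7.76, 7.79 and 7.89 in DMSO at 6 h, 7.19, 7.61 and 7.22 at 24 h, and 7.44, 7.40 and 7.33 at 72 h. With AA it stood at 7.70, 7.97 and 8.24 at 6 h, 7.49, 7.24 and 7.33 at 24 h, and 7.17, 7.38 and 6.96 at 72 h. The treatments overlapped at each time, and both groups of 6 h, at 7.97 ± 0.27 with AA and 7.81 ± 0.07 with DMSO, stood above the other 4.

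Zeb1, a zinc finger repressor of epithelial genes (1370965_at), read 9.63, 9.79 and 9.63 in DMSO at 6 h, 9.58, 9.76 and 9.64 at 24 h, and 9.49, 9.66 and 9.71 at 72 h. Treated arrays read 9.94, 9.76 and 9.97 at 6 h, 9.77, 9.77 and 9.82 at 24 h, and 9.76, 9.48 and 9.59 at 72 h. It was the steadiest member above the floor: its group means spanned 0.28, and every pair of neighbours in the order overlapped.

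**Figure D2:**
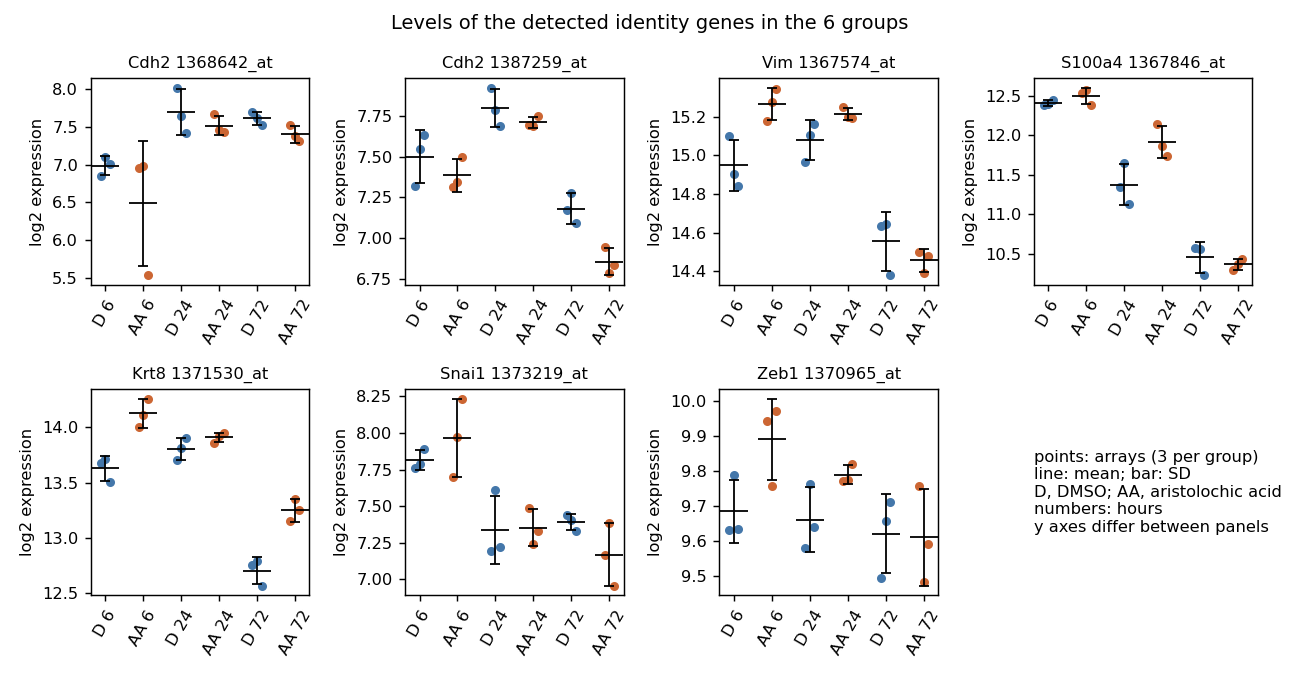
Log2 expression (vertical axes, which differ between panels) of the 7 probe sets above the floor in the 6 groups, D for DMSO and AA for aristolochic acid with the hour; points are arrays (3 per group), the long line is the mean and the bar the SD. Krt8 is higher in AA at 6 h and 72 h, S100a4 steps down with time, and the low point in the first panel is the 5.53 of AA 6 h replicate 3.

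The first question is how the treated cells differed from solvent controls at each time. At 6 h, Krt8 rose by 0.50 ± 0.08 on the log2 scale (± SE from here on), a fold of 1.41 with adjusted p = 0.000479 in limma. Vim rose by 0.32 ± 0.07, a fold of 1.25 (limma, adjusted p = 0.00581). These were the 2 of 6 tested members that passed the test at adjusted p under 0.05, both upward and both without overlap of the arrays; among all 9015 tested genes 24.5% passed, 12.1% upward, and 36.4% did not overlap. Zeb1 differed by 0.21 (95% interval 0.01 to 0.40; limma, adjusted p = 0.107) and passed only with arrays centred on their medians (0.29, adjusted p = 0.0324). Snai1 differed by 0.15 (-0.15 to 0.46), S100a4 by 0.09 (-0.16 to 0.34) and Cdh2 by -0.11 (-0.35 to 0.12). The median difference of the 6 members was 0.18, against 0.01 over all genes tested.

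Without AA 6 h replicate 3, Krt8 stood at 0.43 (limma, adjusted p = 0.00404) and Vim at 0.28 (adjusted p = 0.0383). The members that did not pass moved too, Snai1 to 0.02, S100a4 to 0.15, Zeb1 to 0.17 and Cdh2 to -0.17, and none of them passed (limma, adjusted p from 0.311 to 0.951). The number of genes called at 6 h was less steady, at 2211 with all arrays, 900 without AA 6 h replicate 3 and 1414 without DMSO 6 h replicate 2. The split of the 2211 calls was 1091 higher and 1120 lower, and with arrays centred on their medians it was 1707 higher and 638 lower. The array medians themselves averaged 4.06 in AA and 4.13 in DMSO at 6 h (two-sided exact permutation p = 0.1, the smallest that 3 arrays against 3 allow); their part in the result was not tested. Of the 4 tested proximal tubule markers only Ggt1 passed at 6 h, with a rise of 1.27. Its signal reached log2 4 on only 9 of 18 arrays, which limits the reading of that size. The other 3 markers did not pass (median of the 4, -0.14). The mean level of that list, most of it at the floor, lay at 3.03 to 3.10 in AA against 3.0 to 3.03 in DMSO. The part of this list was not tested either. On the second N-cadherin probe set the difference at 6 h was -0.50 (limma over 16253 probe sets, adjusted p = 0.190) and -0.02 without AA 6 h replicate 3.

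At 24 h, S100a4 rose by 0.54 ± 0.12, a fold of 1.45 (limma, adjusted p = 0.0172), and its AA and DMSO arrays did not overlap. It was the 1 member of 6 that passed, where 2.09% of all tested genes passed and 1.81% passed upward. The call was lost without AA 24 h replicate 1 (0.43, limma adjusted p = 0.136), AA 24 h replicate 2 (0.56, 0.0522), DMSO 24 h replicate 1 (0.52, 0.0779) or DMSO 24 h replicate 3 (0.41, 0.126), and the number of genes called fell from 188 to between 100 and 106 without the same arrays. Vim and Zeb1 also had no overlap at 24 h, a pattern of 19.5% of tested genes, but at 0.14 (limma, adjusted p = 0.535) and 0.13 (adjusted p = 0.687) they did not pass. Krt8 differed by 0.10 (95% interval -0.06 to 0.27), Snai1 by 0.01 (-0.29 to 0.32) and Cdh2 by -0.09 (-0.33 to 0.15). The members' median was 0.12, against -0.01 over all tested genes.

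At 72 h, Krt8 rose by 0.55 ± 0.08, a fold of 1.46 (limma, adjusted p = 1.18e-05), while its level in both treatments was below that of 24 h. Cdh2 fell by 0.33 ± 0.11 on its representative probe set, a fold of 0.797 (limma, adjusted p = 0.0234). These were 2 of 6 members, where 47.2% of all tested genes passed, 27.4% upward and 19.8% downward, and 59.6% did not overlap between treatments, so the members' share was no larger than the background. The Cdh2 call was lost without AA 72 h replicate 2 (-0.29, limma adjusted p = 0.0712) or replicate 3 (-0.32, 0.0572), or without DMSO 72 h replicate 1 (-0.33, 0.0529) or replicate 2 (-0.28, 0.0970). The second N-cadherin probe set differed by -0.21 and did not pass (limma over 16253 probe sets, adjusted p = 0.547). Of the others, Snai1 differed by -0.22 (95% interval -0.53 to 0.08), S100a4 by -0.09 (-0.34 to 0.16) and Zeb1 by -0.01 (-0.20 to 0.18). Vim differed by -0.10 (-0.25 to 0.06; limma, adjusted p = 0.295) and by -0.18 without DMSO 72 h replicate 3 (adjusted p = 0.0498). The members' median was -0.09 against 0.05 over all tested genes.

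A sign of RNA quality moved with treatment at 72 h. The beta-actin control was brighter at its 3' end than at its 5' end by a mean of 2.0 log2 units with AA (1.85 to 2.16) and by 1.35 with DMSO (1.29 to 1.45), without overlap (two-sided exact permutation p = 0.1, as low as 3 against 3 can reach). The same difference for Gapdh was -0.07 and -0.21, also at the lowest p the exact test allows, while for hexokinase (1.38 and 1.12) the treatments overlapped. The mean level of the proximal tubule markers was lower in AA at 72 h, 2.89 to 2.93 over the arrays against 3.28 to 3.32 in DMSO. Of these markers, Slc4a4 at -2.76, Aqp1 at -2.33 and Mme at -0.55 were past the test. Aqp1 reached log2 4 on only 7 of 18 arrays, which limits the reading of its size. Mme was lost under 17 of 26 alternatives, the replicate block among them (limma, adjusted p = 0.0525). The endothelial list lay at 2.93 to 2.99 against 3.19 to 3.25, with Tek at -2.02, and the immune list at 2.84 to 2.88 against 2.57 to 2.68, with Cd68 higher in AA (mean 5.23); its DMSO mean of 3.33 lies below log2 4, so the size of that difference is not given. Fibroblast markers lay at 5.06 to 5.16 against 5.01 to 5.24, and the loop and distal markers at 2.25 to 2.34 over all arrays. The part of these values in the Krt8 and Cdh2 results was not tested.

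**Figure D3:**
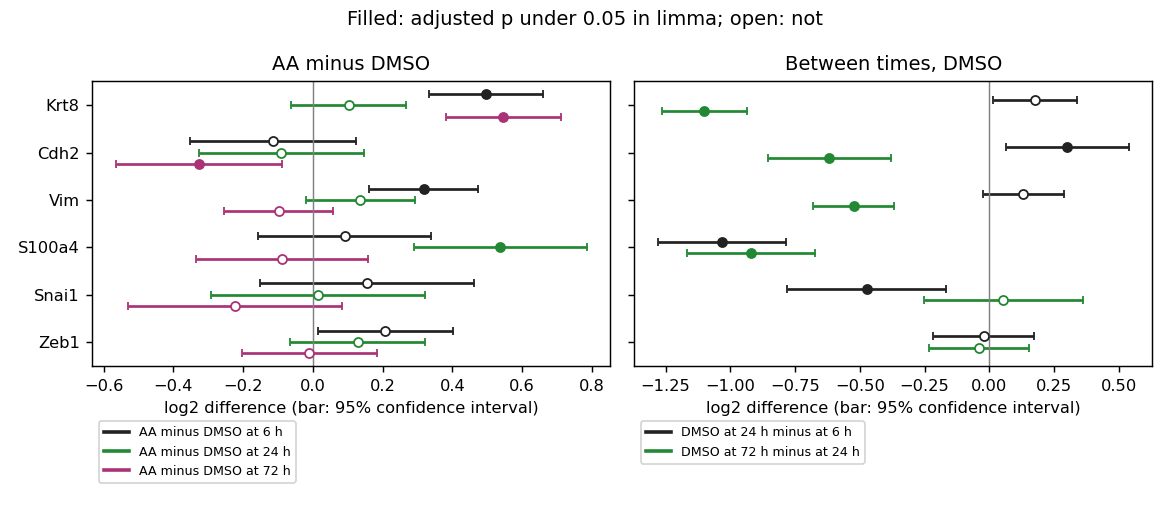
Log2 difference (horizontal axes) of the 6 tested members, AA minus DMSO at each time on the left and between times in DMSO on the right; points are limma estimates, bars 95% confidence intervals, and filled points passed at adjusted p under 0.05. Krt8 is filled at 6 h (0.50) and 72 h (0.55), S100a4 at 24 h (0.54), and Krt8, Cdh2, Vim and S100a4 lie below 0 between 24 h and 72 h in DMSO.

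The next question is whether the treatment effect itself moved with time. From 24 h to 72 h the effect on Krt8 increased by 0.44 ± 0.11 (limma, adjusted p = 0.00474) and the effect on S100a4 decreased by 0.63 ± 0.17 (adjusted p = 0.00754). Of all tested genes, 32.4% changed in this way, 18.7% upward and 13.7% downward. For Vim the change was -0.23 (limma, adjusted p = 0.0986), or -0.32 without DMSO 72 h replicate 3 (adjusted p = 0.0195), and Cdh2 (-0.24), Snai1 (-0.24) and Zeb1 (-0.14) did not pass either. From 6 h to 24 h limma called 0 of 6 members, where 2.43% of all genes were called (1.45% upward, 0.976% downward); at an unadjusted p under 0.05 there were 2, Krt8 at -0.39 (adjusted p = 0.0622) and S100a4 at 0.45 (adjusted p = 0.150). Krt8 passed when AA 6 h replicate 1 was left out (-0.45, limma adjusted p = 0.0311). Without AA 6 h replicate 3, Krt8 stood at -0.33 (adjusted p = 0.151), S100a4 at 0.39 (adjusted p = 0.308) and Snai1 at -0.01, against -0.14 for Snai1 with all arrays; Vim stood at -0.14, Zeb1 at -0.04 and Cdh2 at 0.08. The 219 genes called in this comparison, 131 higher and 88 lower, became 75 higher and 107 lower with centred arrays, and numbered 22 to 458 when single arrays were left out.

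The members also differed between times in DMSO alone. These comparisons use the same DMSO arrays as the treatment comparisons. From 6 h to 24 h in DMSO, S100a4 fell by 1.03 ± 0.12, to a fold of 0.489 (limma, adjusted p = 4.79e-07), and Snai1 fell by 0.47 ± 0.15 (adjusted p = 0.00935). Cdh2 rose by 0.30 ± 0.11 (limma, adjusted p = 0.0293), and on the second probe set by 0.71 (adjusted p = 0.0316). The 3 members called stood against 58.7% of all tested genes, 28.3% upward and 30.5% downward, and their arrays did not overlap, as in 64.3% of tested genes. The Cdh2 call was lost without DMSO 6 h replicate 1 (0.21, limma adjusted p = 0.149), DMSO 24 h replicate 1 (0.24, 0.122) or DMSO 24 h replicate 2 (0.31, 0.0587), and with centred arrays (0.27, 0.0662), and that of the second probe set without DMSO 6 h replicate 1 or 3 or DMSO 24 h replicate 1 or 2. Krt8 at 0.18 (limma, adjusted p = 0.0612) did not pass, but did without AA 6 h replicate 3 (adjusted p = 0.0434), DMSO 6 h replicate 2 (0.0446), DMSO 24 h replicate 1 (0.0340) or DMSO 72 h replicate 3 (0.0496). Vim at 0.13 (limma, adjusted p = 0.142) passed only without DMSO 6 h replicate 1 (0.21, 0.0292) and with quantile normalisation (0.17, 0.0437), and Zeb1 was at -0.02.

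From 24 h to 72 h in DMSO, 4 of the 6 members fell, where 34.3% of all tested genes were called and 17.1% fell. Krt8 fell by 1.10 ± 0.08, to a fold of 0.466 (limma, adjusted p = 8.63e-09), S100a4 by 0.92 ± 0.12 (adjusted p = 8.35e-06), Cdh2 by 0.62 ± 0.11 (adjusted p = 0.000320) and Vim by 0.52 ± 0.07 (adjusted p = 2.61e-05). In each of the 4 the arrays of the 2 times did not overlap, as in 52.6% of tested genes. Snai1 (0.05) and Zeb1 (-0.04) did not pass. The members' median was -0.57, against 0.00 over all genes. The second N-cadherin probe set differed from the first here, at -0.08 (limma, adjusted p = 0.841), so the fall of Cdh2 rests on 1 probe set. The marker lists were also read between these times in DMSO. The mean level of the proximal tubule markers went from between 2.99 and 3.07 over the arrays of 24 h to between 3.28 and 3.32 at 72 h, with 1 of 4 tested genes higher and 1 lower, and that of the fibroblast markers from between 5.34 and 5.42 to between 5.01 and 5.24, with 1 of 3 higher and 2 lower (median -0.60). Of the mesenchymal and matrix genes 10 of 16 fell and 2 rose (median -0.31). The endothelial list went from between 3.10 and 3.17 to between 3.19 and 3.25, with 1 of 2 tested genes higher. The arrays of the immune list overlapped, at 2.64 to 2.77 and 2.57 to 2.68, and its 1 tested gene did not pass. The part of these lists in the members' changes was not tested.

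Genes around the members were read from lists of related genes. The counts stand against the share of all tested genes that passed, 12.1% upward and 12.4% downward at 6 h, 2.09% either way at 24 h, and 27.4% upward and 19.8% downward at 72 h, and a count near these shares is no result about a list. Among the adherens junction and cadherin genes, 16 of 18 written were on the array and 9 were tested. At 6 h, 4 rose and 0 fell: the P-cadherin gene Cdh3 by 0.53, Nectin2, an adhesion receptor, by 0.43, Jup (plakoglobin) by 0.35 and Ctnna1 (alpha-catenin) by 0.22; the list's median was 0.22, against 0.01 over all genes. Without AA 6 h replicate 3 there were 2, with Jup (also lost without DMSO 6 h replicate 3) and Ctnna1 no longer past the test. With only the groups compared in the fit, 1 remained past the test, Cdh3, and Nectin2 (limma, adjusted p = 0.0596), Jup (0.0808) and Ctnna1 (0.0898) were lost. At 72 h Ctnnd1, the p120 catenin gene, rose by 0.51 and Nectin2 fell by 0.38, and the other 7 did not pass (median 0.10, all genes 0.05).

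Genes of tight junctions and cell polarity numbered 25 on the array. The 16 that were tested lay at or above log2 4 on all 18 arrays, and the other 9 lay below it on all 18. The claudin genes Cldn1, Cldn2, Cldn3, Cldn4, Cldn6, Cldn7 and Cldn10 were among those below. The claudin gene Cldn12 (mean 8.88) was among those above, with Tjp1, F11r, Cgn and Ocln. At 72 h 6 of 16 rose and 3 fell (median 0.17), where 27.4% of all tested genes rose and 19.8% fell. The falls included the largest differences of the list, in the polarity genes Pard3 (-2.12) and Patj (-1.93) and in Cgnl1 (-1.13), which encodes a cingulin-like junction protein, while Llgl2 (0.85) and Scrib (0.74) of the basolateral polarity complex rose. At 6 h Lsr rose by 0.31, and Pals1 fell by 0.35 and Prkci by 0.29. Lsr was lost without AA 6 h replicate 3, DMSO 6 h replicate 2 or DMSO 6 h replicate 3, Pals1 without AA 6 h replicate 2, AA 6 h replicate 3 or DMSO 6 h replicate 3, and Prkci without DMSO 6 h replicate 3; with centred arrays 3 genes of the list rose and 0 fell.

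Of the desmosome and epithelial surface genes, 15 of 18 lay below log2 4 on all arrays, including Dsp, Dsg2, Dsc2, Epcam and Esrp1, like E-cadherin. The plakophilin gene Pkp2 rose by 1.12 at 72 h, while Pkp4 fell by 1.75 at 72 h and by 0.83 at 6 h, the last lost without AA 6 h replicate 3 or DMSO 6 h replicate 3. Spint2, a protease inhibitor of epithelial surfaces, rose by 0.26 at 72 h, which was lost without AA 72 h replicate 2, AA 72 h replicate 3 or DMSO 72 h replicate 3. The list's median was -0.22 at 6 h and 0.26 at 72 h.

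Of the other intermediate filament genes and their partners, 18 were on the array and 7 were tested; the keratins Krt5, Krt7, Krt14, Krt15, Krt17, Krt20 and Krt23 lay below log2 4 on every array. At 6 h Ppl, by 0.74, and Plec, by 0.68, rose, and Krt10 fell by 0.72 (median 0.24). Ppl and Plec encode plakins, proteins that anchor intermediate filaments, and a link of their rise to that of Krt8 and Vim was not tested. Evpl, another plakin gene of the list, lay below log2 4 on every array. At 72 h Plec (0.55) and the nuclear lamina gene Lmnb2 (0.47) rose, while Lmnb1 (-1.05), Synm (-0.54), which encodes the vimentin partner synemin, and Krt10 (-0.42) fell (median -0.14). The fall of Krt10 at 72 h was lost under 14 of 26 alternatives, among them the replicate block (limma, adjusted p = 0.0558), each DMSO 72 h replicate left out and AA 72 h replicate 1 left out (-0.26). Plec was lost in none of the 26 alternatives at either time, and Lmnb2 was lost without AA 72 h replicate 2 or DMSO 72 h replicate 3.

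Of 30 mesenchymal and matrix genes on the array, 16 were tested, and Dcn, Lum, Pdgfra, Thy1, Fap, Col6a1 and Col6a2 were among the 12 below log2 4 on every array. At 72 h 7 of 16 rose and 3 fell (median 0.14, all genes 0.05), where 27.4% of all tested genes rose and 19.8% fell. The increases were led by the hyaluronan receptor gene Cd44 (2.30) and the integrin gene Itga5 (1.40). The DMSO 72 h mean of Cd44 was 4.64, close to log2 4, which limits the reading of its size. The smooth muscle genes Tagln (1.36) and Acta2 (0.74), named after their values were seen, were also among the increases. Cnn1, a further smooth muscle gene of the list, lay below log2 4 on every array. The collagen genes Col3a1 and Col5a1 each fell by 0.32 and the collagen cross-linking gene Lox by 0.26, and without AA 72 h replicate 2 none of these 3 passed; without DMSO 72 h replicate 2, 1 did, and Lox was lost without DMSO 72 h replicate 1 too. At 6 h Tagln rose by 0.44, and Itgav fell by 0.49 and Col5a2 by 0.14 (median -0.10). None of these 3 passed without AA 6 h replicate 3 or without DMSO 6 h replicate 2. Tagln and Col5a2 were also lost without DMSO 6 h replicate 3, and without AA 6 h replicate 1 or DMSO 6 h replicate 1 only 1 of the falls passed. Col5a2 was lost under 9 of 26 alternatives, and with centred arrays it stood at -0.06 (limma, adjusted p = 0.361).

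Of the other transcription factor genes of the transition, 14 were on the array and 9 were tested. At 72 h Tcf4, an E-box-binding factor, fell by 1.10 and the inhibitor of such factors Id3 by 1.04, while Id2 rose by 0.50, Ets1 by 0.28 and Sox4 by 0.24 (median -0.19). Only 1 of the 3 increases passed without AA 72 h replicate 1, AA 72 h replicate 3 or DMSO 72 h replicate 3, and Sox4 was also lost without DMSO 72 h replicate 1 or 2. At 6 h Sox4 rose by 0.45, and Id2 fell by 0.37, which was lost without AA 6 h replicate 2 or 3 or DMSO 6 h replicate 2 or 3 and with centred arrays (median 0.07).

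Among epithelial and kidney transcription factor genes, only Grhl1, Klf4, Klf5 and Emx2 of 11 lay above log2 4, while Elf3, Ehf, Hnf4a, Pax2, Pax8, Lhx1 and Foxa1 lay below it on every array. Klf4, a factor of epithelial differentiation, fell by 1.27 at 6 h and rose by 2.25 at 72 h, and Grhl1, a grainyhead factor of epithelial junction genes, fell by 1.37 at 6 h and rose by 0.62 at 72 h. Grhl1 at 72 h was lost without AA 72 h replicate 1. Klf5 fell by 0.36 at 72 h (list medians -0.78 at 6 h and 0.26 at 72 h).

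Of the other S100 genes, 6 of 12 were tested. At 72 h S100a11 rose by 0.41, S100a10 by 0.32 and S100a6 by 0.16, and S100a13 fell by 0.59 and S100a16 by 0.31 (median 0.01); 1 of the 2 falls passed without AA 72 h replicate 1, AA 72 h replicate 3 or DMSO 72 h replicate 2. At 6 h S100a16 (0.32), S100a10 (0.18) and S100a11 (0.16) rose, with a median of 0.08. All 3 were lost with only the groups compared, and S100a10 was lost under 17 of 26 alternatives, the replicate block among them (limma, adjusted p = 0.0549), S100a11 under 8 and S100a16 under 4. Without AA 6 h replicate 3, 0 of them passed, and 1 did without any of the DMSO 6 h replicates or without AA 24 h replicate 2 or 3. At 24 h limma called 0 of 70 genes in these lists, with 9 at an unadjusted p under 0.05, where 2.09% of all tested genes were called.

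**Figure D4:**
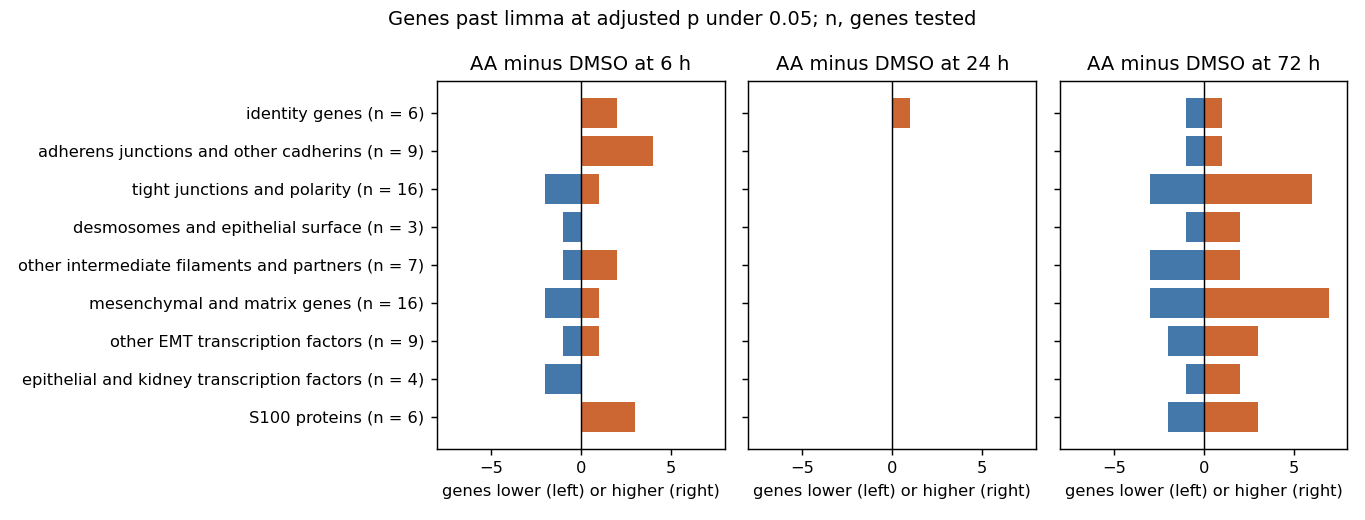
Number of genes past limma at adjusted p under 0.05 (horizontal axes), higher in AA to the right in orange and lower to the left in blue, in the identity genes and each list of related genes at 6, 24 and 72 h; n is the number of genes tested. At 24 h the only bar is S100a4, and at 72 h the lists move in both directions.

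Over the 18 arrays the tested members were correlated with each other to unequal degrees. Pearson's r over 15 pairs ran from 0.22 (Cdh2 with Snai1) to 0.89 (Vim with Krt8), with S100a4 at 0.83 with Vim and 0.80 with Krt8. All points share the same time course and arrays, so these values are a description. The 3 genes most like each member by the same measure were, for Krt8, Ripk3 (0.986), Mvd (0.978) and Fdps (0.964), for Vim, Ptgis (0.975), Calml4 (0.959) and Cd14 (0.959), and for S100a4, PCOLCE2 (0.986), Lgals1 (0.982) and Postn (0.979). They were Ints9 (0.962), Rab36 (0.943) and Iqgap2 (0.937) for Cdh2, and Mrpl19 (0.926), Ubtf (0.924) and Nhp2 (0.918) for Snai1. Zeb1, whose level moved least, had the lowest values, with Sf3b2 (0.827), Scx (0.778) and Ppp1ca (0.774).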

How the data were processed

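Total RNA from 18 cultures was hybridised to Affymetrix rat arrays, 3 for each of 6 groups taken from the labels. The deposited values are log2 expression made by the authors with GCRMA, which corrects background, normalizes arrays and summarises probes, per the submitters' processing notes, which name no version; the genome build is not given in the sources used here. With 3 arrays per group, precision is limited by that number.

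The table lists 31099 probe sets, of which 57 are controls. By GEO's platform annotation 20832 carry 1 gene symbol, 436 several and 9831 none. Of the single-symbol probe sets, 20758 were matched by gene number to RefSeq (GRCr8). Each of 14217 genes was represented by its probe set with the highest mean, and the 9015 genes that reached log2 4 on 3 arrays entered the test, in R 4.3.3 with limma 3.58.1: 6 group means, eBayes with an intensity trend (12 residual and 7.27 prior degrees of freedom) and Benjamini-Hochberg adjustment within each comparison at 0.05. Probe sets were also fitted separately (16253). The steps were tested on simulated data.

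Members and lists were chosen with earlier results of these data known. From each list and treatment comparison, up to 4 called genes without overlap of arrays were named by size of change, at most 2 each way first, and for each member the 3 most correlated genes. To complete small counts, Cgnl1, Krt10 (72 h), Itgav (6 h), Lox, Id2 (6 h), Ets1 and S100a6, and also Tagln and Acta2 (72 h), were named after their values were seen. Alternatives were another scaling (centred, quantile), no filter or log2 6, only the groups compared, the replicate number as a block, every probe set, no trend, and each array left out. Promoter windows came from the RefSeq table of GRCr8; Cdh1, Cdh2, Krt19 and Snai2 had no entry.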

Additional observations from a re-analysis of the deposited data

Results flagged for a closer look

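Between 24 h and 72 h the difference between AA and DMSO itself differed for 2 of the 6 tested members by limma's test of that difference. Of all tested genes 32.4% did so, and the number of members called is therefore no result about them. For Krt8 it went from 0.10 to 0.55, a change of 0.44 (adjusted p = 0.00474), with AA arrays above all DMSO arrays at 72 h and overlapping them at 24 h. For S100a4 it went from 0.54 to -0.09, a change of -0.63 (adjusted p = 0.00754), with no overlap at 24 h and overlap at 72 h. The call of S100a4 at 24 h was itself lost under 6 of 26 alternatives. Over 26 alternatives the change stayed between 0.37 and 0.49 for Krt8, with adjusted p up to 0.0169, and between -0.77 and -0.50 for S100a4, with adjusted p up to 0.0278.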

How the results depend on the processing

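Each of 42 member differences was recomputed under 26 alternatives, 18 of which left out 1 array. Of 14 past the test, 11 passed in every alternative run; the exceptions were S100a4 at 24 h, Cdh2 at 72 h and Cdh2 between 24 h and 6 h in DMSO. Besides the arrays named above, S100a4 at 24 h did not pass with no filter (0.54, limma adjusted p = 0.0578) or only the groups compared (0.54, 0.121), which left 0 members called at 24 h under each, and Cdh2 between 24 h and 6 h in DMSO did not pass with only the groups compared (0.30, 0.0765). Sign changed in some alternative for 6 of the 42, none of them past the test: with centred arrays Zeb1 at 72 h was 0.0073, the Cdh2 change from 6 h to 24 h -0.0179 and Zeb1 between 72 h and 24 h in DMSO 0.0061.

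With single arrays left out, the differences that changed sign ranged from -0.0599 to 0.1476 (Snai1 at 24 h), -0.0846 to 0.054 (Zeb1 at 72 h), -0.0422 to 0.1158 (Cdh2, 24 h minus 6 h effect), -0.0744 to 0.0287 (Zeb1, DMSO 24 h minus 6 h), -0.0211 to 0.1865 (Snai1, DMSO 72 h minus 24 h) and -0.0853 to 0.0228 (Zeb1, the same). For the Cdh2 probe set 1368642_at they ranged from -0.1592 to 0.5634 for the 24 h minus 6 h effect, -0.1938 to 0.1034 for the 72 h minus 24 h effect and -0.2215 to 0.0756 for DMSO 72 h minus 24 h.

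Counts of calls moved by over 1.5 times as follows. With only the groups compared, 579 genes were called at 6 h and 89 for the 24 h minus 6 h effect. With no filter there were 112 at 24 h and 78 for the 24 h minus 6 h effect, and with no trend 138 for the latter. Counted over probe sets in place of genes, the calls were 3482 at 6 h, 7236 at 72 h, 4804 for the 72 h minus 24 h effect, 8715 for DMSO 24 h minus 6 h and 5720 for DMSO 72 h minus 24 h. With quantile normalisation 1 member passed for the 24 h minus 6 h effect and 5 for DMSO 24 h minus 6 h.

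With single arrays left out, genes called ranged from 900 to 2537 at 6 h, 100 to 214 at 24 h, 3629 to 4494 at 72 h, 22 to 458 for the 24 h minus 6 h effect, 2417 to 3174 for the 72 h minus 24 h effect, 4813 to 5450 for DMSO 24 h minus 6 h and 2457 to 3326 for DMSO 72 h minus 24 h. Members called ranged from 2 to 2, 0 to 1, 1 to 3, 0 to 1, 2 to 3, 2 to 4 and 4 to 4 in the same order. The causes were not tested.

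Same-numbered arrays did not deviate together (r from -0.156 to 0.155, over 0.1 in 1 of 9 pairs), so the numbers give no pairing. With the replicate block, the calls numbered 2265 at 6 h, 188 at 24 h, 4256 at 72 h, 252 and 2950 for the 2 changes of effect, and 5320 and 3112 in DMSO, and no member call changed; of the other genes named, S100a10 at 6 h and Krt10 and Mme at 72 h lost theirs. Signal near the floor limits Cdh1, Krt18 and Krt19: no difference in them can be read from these arrays.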
